A study of Mus musculus with 6 samples.

Results

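Transcripts of 9 genes that write, erase and read DNA methylation were examined in the mouse nucleus accumbens, a ventral striatal target of dopamine neurons, after repeated cocaine or saline. The genes were taken by symbol: the DNA methyltransferases Dnmt1, Dnmt3a and Dnmt3b, the dioxygenases Tet1, Tet2 and Tet3, and the methyl-CpG binding domain genes Mbd1, Mbd2 and Mbd3. Each symbol had a single row, so that 9 of the 35406 rows of the authors' deposited table are described, and all 9 carried the test status OK, as did 23479 rows in all. The mice were male C57BL/6 animals aged 11 weeks, injected intraperitoneally for 1 week with saline or with cocaine at 20 mg/kg and then studied 24 h into withdrawal. Per group there were 3 pools of 5 mice, with both hemispheres of each mouse combined, and the cages of 5 were not counterbalanced, since all mice of a cage received the same injection. The table gives 1 FPKM value per gene and group (fragments scaled to transcript length and library size) and no value per pool. The number of fragments behind a value is not given, so the depth is unknown, and it is not stated whether the test of the authors included differences among pools.

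DNA methylation in mammals is placed mainly on cytosines that precede a guanine, written CpG. Dnmt1 copies existing methylation to the new strand after replication, whereas Dnmt3a and Dnmt3b methylate sites that carried none. Tet enzymes oxidise 5-methylcytosine to 5-hydroxymethylcytosine and further products, which excision repair can replace with unmodified cytosine. Mbd1 and Mbd2 bind methylated CpG, and Mbd2 and Mbd3 are alternative subunits of the NuRD complex, which joins a nucleosome remodeller to histone deacetylases. Neurons are rich in 5-hydroxymethylcytosine, and both Dnmt3a and Tet1 of the accumbens have been studied for their part in responses to cocaine.

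The comparison of cocaine with saline asks which of these transcripts differed after a day of withdrawal. Tet1 and Tet2 were lower after cocaine, each by about the same factor, and were the members called at an authors' q under 0.05. Called rows made up 2 of 9 members, both lower, against 11.9% of all status OK rows called in either direction with 6.1% called higher and 5.76% called lower. Dnmt1 was lower by a smaller factor and did not reach that threshold. None of the Mbd genes was called, and of the 9 log2 ratios of cocaine over saline 6 were below 0 and 3 above, with a median of -0.08 beside 0.04 over 14193 expressed genes. These 14193 genes had a single symbol, the status OK, both values above 0 and an average of 1 FPKM or more.

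Tet2, the most abundant of its family, was at 10.6 FPKM in saline and 7.25 FPKM in cocaine pools in the authors' deposited table. The fall was 1.46-fold, a log2 ratio of -0.54 ± 0.11 (the standard error implied by the authors' test statistic), with a 95% interval of -0.75 to -0.34. Its q was 7.47e-06 in the authors' deposited table, the lowest of the 9 genes. A lower log2 ratio was found in 4.58% of the 14193 expressed genes. Tet2 lies on chromosome 3 at 133126643 to 133207354 (coordinates of all genes in the mouse build named mm9 and NCBIM37 in the submitters' notes), in a locus that no other row overlapped.

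Tet1 was listed at 1.14 FPKM in saline and 0.768 FPKM in cocaine pools in the authors' deposited table, among the low values of the set. Its fall was 1.49-fold, a log2 ratio of -0.58 ± 0.18 with a 95% interval of -0.92 to -0.23. In the authors' deposited table its q was 0.0132. With 1 FPKM added to both values the log2 ratio of Tet1 was -0.28. Its mean was under 1 FPKM, so that a minimum at that level would remove it. The gene is on chromosome 10 at 62267318 to 62342762 and shared its locus with no other row.

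Tet3 had 6.81 FPKM in saline and 6.12 FPKM in cocaine pools in the authors' deposited table and was not called (log2 ratio -0.16 ± 0.11, 95% interval -0.38 to 0.07, q = 0.493). It lies on chromosome 6 at 83312367 to 83391672. The log2 ratio of Tet2 was 0.39 below that of Tet3, and the 95% interval of the Tet2 minus Tet3 difference, -0.69 to -0.08, excluded 0. For Tet1 minus Tet3 the interval was -0.83 to -0.01, and for Tet1 minus Tet2 it was -0.44 to 0.37. These differences combine implied standard errors as if independent and were added after the data were seen. Of 9 such pairs within the families 2 excluded 0, and 0 did so once the intervals were widened for 9 pairs, which for Tet2 minus Tet3 gave -0.82 to 0.05.

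The start regions of the Tet genes are shown because Tet1 and Tet2 were both called lower, and because CpG is the site on which these enzymes act. The windows run from 250 bases before to 50 after the RefSeq start, in build GRCm38.p6, all on the minus strand: chr10:62887275-62887574 for Tet1, chr3:133544341-133544640 for Tet2 and chr6:83441629-83441928 for Tet3. Each is printed 5′ to 3′, with every CpG in capitals.
Tet1: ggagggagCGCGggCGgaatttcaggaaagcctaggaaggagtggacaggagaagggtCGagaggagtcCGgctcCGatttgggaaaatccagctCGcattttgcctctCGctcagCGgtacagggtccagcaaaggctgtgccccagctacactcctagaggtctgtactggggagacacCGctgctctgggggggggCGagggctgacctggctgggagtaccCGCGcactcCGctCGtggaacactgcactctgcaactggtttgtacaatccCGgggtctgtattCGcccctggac
Tet2: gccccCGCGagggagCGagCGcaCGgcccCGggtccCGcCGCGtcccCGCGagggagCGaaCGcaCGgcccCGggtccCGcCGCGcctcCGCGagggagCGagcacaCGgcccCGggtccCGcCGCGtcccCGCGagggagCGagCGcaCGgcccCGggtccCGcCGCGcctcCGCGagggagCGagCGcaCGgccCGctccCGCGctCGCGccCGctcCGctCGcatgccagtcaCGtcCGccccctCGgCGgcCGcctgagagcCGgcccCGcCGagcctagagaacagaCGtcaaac
Tet3: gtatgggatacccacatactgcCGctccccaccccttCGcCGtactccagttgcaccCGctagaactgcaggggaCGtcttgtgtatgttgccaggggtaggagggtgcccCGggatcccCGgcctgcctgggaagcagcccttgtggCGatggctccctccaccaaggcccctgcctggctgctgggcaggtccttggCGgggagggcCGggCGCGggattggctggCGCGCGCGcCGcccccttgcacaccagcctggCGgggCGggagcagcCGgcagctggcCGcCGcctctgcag
The Tet2 window holds 57 CpG, that of Tet1 17 and that of Tet3 22, beside a median of 7 over 32851 RefSeq windows of the same length. As many CpG as in the Tet2 window were found in 0.152% of all windows, as many as in the Tet1 window in 31.4%, and as many as in the Tet3 window in 23.1%. Much of the Tet2 sequence is a tandem repeat: shifted by 42 bases, its first 220 bases matched themselves at 84.3% of positions. Tet1, called lower, had fewer CpG than Tet3, which was not called. Any link of CpG number to the response was not tested. The table is in another build, and the windows were not placed in its coordinates.

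RefSeq windows were found for 7 of the 9 genes. Dnmt3a had 3 start windows with 46, 47 and 18 CpG, of which the first 2 overlap, Dnmt1 had 3 with 33, 12 and 2, Dnmt3b had 1 with 30 and Mbd3 had 1 with 22. Letters of the cyclic AMP response element (TGACGTCA) and of the AP-1 site (TGANTCA) were searched on both strands, since CREB and Fos proteins, which bind them, are well-studied factors of the accumbens. Neither string was in any of these windows, and they were in 1.79% and 7.81% of all windows. The GC box (GGGCGG, either strand) was in all 3 Tet windows, once in those of Tet1 and Tet2, and in 35.7% of all windows. The E-box (CACGTG) was in 1 Dnmt3a window, in no other window of these genes and in 7.15% of all windows.

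**Figure D1:**
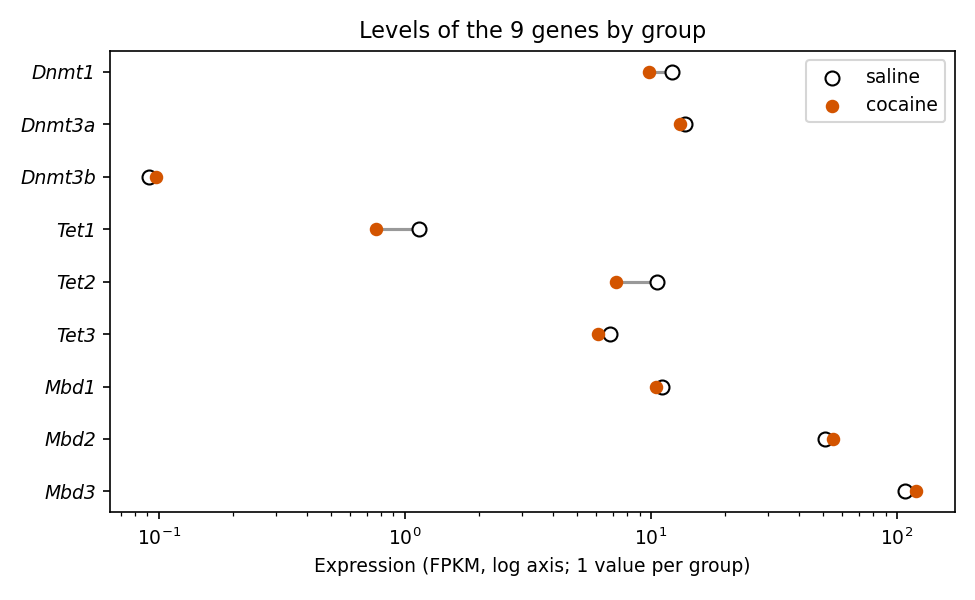
FPKM of each gene in saline (open circles) and cocaine (filled circles) pools, with 1 value per group and a logarithmic axis. The lines are longest for Tet1 and Tet2, while the values span from near 0.1 FPKM for Dnmt3b to over 100 FPKM for Mbd3.

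Among the methyltransferases, Dnmt1 had 12.2 FPKM in saline and 9.87 FPKM in cocaine pools in the authors' deposited table, 1.23-fold lower. Its log2 ratio was -0.30 ± 0.12, and the 95% interval of -0.53 to -0.07 did not include 0. Adjusted over all rows, its q was 0.0728 in the authors' deposited table, which the authors marked under their own threshold of 0.1. At that threshold 3 of 9 members were called, against 14.6% of status OK rows. Dnmt1 lies on chromosome 9 at 20711650 to 20757317, alone in its locus.

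Dnmt3a was level between the groups within its error, at 13.8 FPKM in saline and 13.2 FPKM in cocaine pools (log2 ratio -0.06 ± 0.10, q = 0.884, in the authors' deposited table). Its 95% interval of -0.27 to 0.14 leaves out a fall as large as the point estimate of Tet2, Tet1 or Dnmt1. Dnmt3a lies on chromosome 12 at 3806523 to 3914443 and shares that locus with Gm10485, a row at 0.127 and 0.108 FPKM. Dnmt3b, the other enzyme for new sites, was near the floor at 0.0912 FPKM in saline and 0.0978 FPKM in cocaine pools, and its 95% interval of -1.29 to 1.49 allows a change of over 2-fold either way. It lies on chromosome 2 at 153474426 to 153513466, in a locus shared with 7530422B04Rik. For Dnmt1 minus Dnmt3a the difference in log2 ratio was -0.24 ± 0.16, with a 95% interval of -0.54 to 0.07.

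Of the readers, Mbd3 and Mbd2 were the most abundant members of the set, whereas Mbd1 was below Dnmt3a in both groups. Mbd3 had 107.6 FPKM in saline and 120.04 FPKM in cocaine pools in the authors' deposited table, with a log2 ratio of 0.16 ± 0.09, a 95% interval of -0.01 to 0.33 and q = 0.285. Mbd2 was at 51.2 and 55.3 FPKM (0.11 ± 0.11, q = 0.665) and Mbd1 at 11.1 and 10.5 FPKM (-0.08 ± 0.12, q = 0.857), saline before cocaine, in the authors' deposited table. Mbd3 lies on chromosome 10 at 79855284 to 79862295, and Mbd1 (74427926 to 74442339) and Mbd2 (70727843 to 70785785) on chromosome 18. All of them were alone in their loci. In the mouse, Mbd3 binds methylated CpG only weakly and acts mainly as a NuRD subunit. The 95% interval for Mbd1 minus Mbd3, -0.54 to 0.06, and those of the other Mbd pairs included 0.

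**Figure D2:**
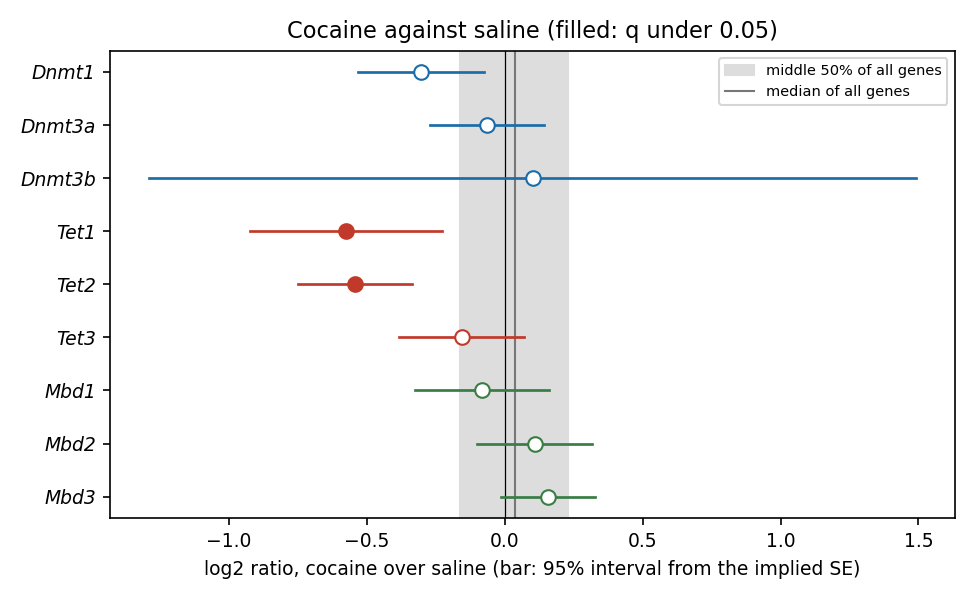
Log2 ratio of cocaine over saline for each gene (circles, filled where q is under 0.05) with the 95% interval from the implied standard error (bars), on the median and middle 50% of 14193 expressed genes. Tet1 (-0.58) and Tet2 (-0.54) lie below the band with their whole intervals, and the interval of Dnmt3b spans -1.29 to 1.49.

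In saline pools the levels, which FPKM scales to transcript length, ran from Mbd3 and Mbd2 through Dnmt3a, Dnmt1, Mbd1 and Tet2 to Tet3, Tet1 and Dnmt3b. Mbd3 was 2.10-fold above Mbd2, and Mbd2 3.72-fold above Dnmt3a. The table gives no error for a level, so gaps were read against the combined implied standard error of the log2 ratios of both neighbours. That error is for a ratio between groups within a gene and not for a gap between genes, so it serves only as a scale. On that scale the neighbours among Dnmt3a, Dnmt1, Mbd1 and Tet2 were close in saline pools, with gaps of 0.18, 0.13 and 0.07 on the log2 scale beside combined errors of 0.16, 0.17 and 0.16, while the gap from Dnmt3a to Tet2 was 0.38 beside 0.15. In cocaine pools Mbd1 stood above Dnmt1, a gap of 0.09 beside a combined error of 0.17. Tet2 was 1.55-fold above Tet3 in saline and 1.19-fold above it in cocaine pools.

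Summed over each family, Dnmt transcripts were at 26.02 FPKM in saline and 23.1 FPKM in cocaine pools, Tet transcripts at 18.5 and 14.1 FPKM, and Mbd transcripts at 169.9 and 185.8 FPKM. The Tet sum differed by -23.7%, with the share of Tet2 at 57.01% in saline and 51.3% in cocaine pools and that of Tet3 at 36.8% and 43.3%. Dnmt3a held 52.9% of the Dnmt sum in saline and 56.9% in cocaine pools, and Mbd3 63.3% and 64.6% of the Mbd sum. Dnmt over Tet transcripts gave a ratio of 1.41 in saline and 1.64 in cocaine pools. These sums and shares have no error and were not tested.

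**Figure D3:**
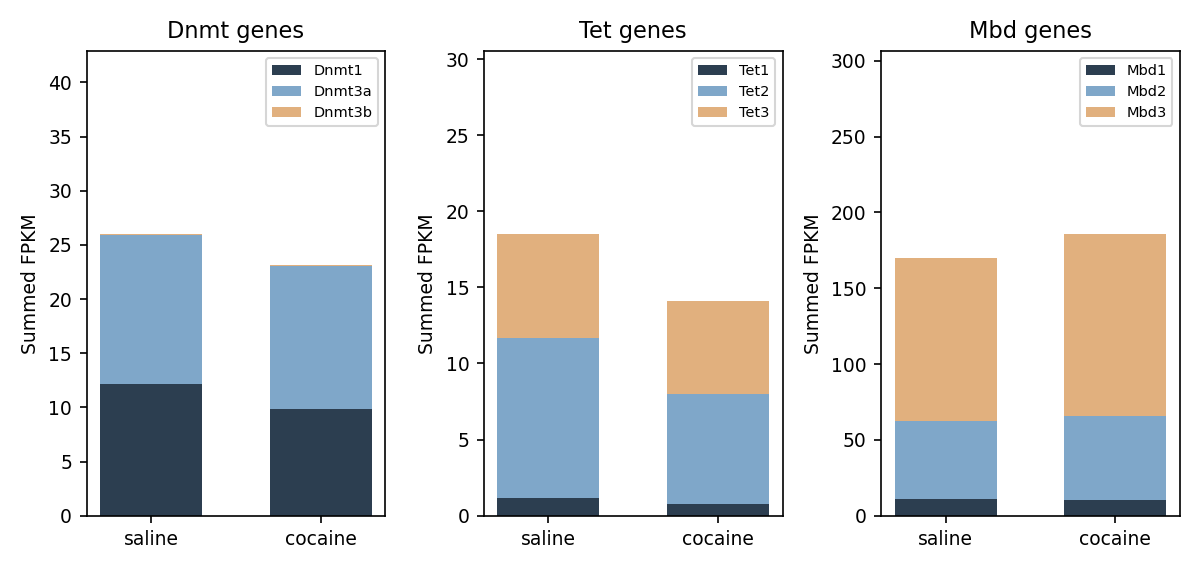
Summed FPKM of the Dnmt, Tet and Mbd genes in saline and cocaine pools, stacked by gene, with a separate axis from 0 for each family and 1 value per group. The Tet stack goes from 18.5 to 14.1 FPKM, mostly in its Tet2 segment.

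Transcript length moved with the log2 ratio across the whole table. Genes were split into 10 deciles by their longest annotated transcript. In the shortest decile the median log2 ratio was 0.21 and 1.32% were called lower, and in the longest decile (6667 nt or more) the median was -0.19 and 29.8% were called lower. By length all Tet genes and Dnmt3a fall in that longest decile, at 14369 nt for Tet1, 9179 nt for Tet2, 10904 nt for Tet3 and 9685 nt for Dnmt3a. The deciles were built from genes with a mean of at least 1 FPKM, which Tet1 did not reach, so Tet1 was placed by length alone. Of the 4 genes 2 were called lower, beside 29.8% of that decile and 5.76% of all status OK rows. Tet1, 1 of the 2, is not among the genes behind the 29.8%, while the 5.76% has no minimum FPKM. Relative to the median of the decile, Tet1 was at -0.39, Tet2 at -0.35, Tet3 at 0.03 and Dnmt3a at 0.13 on the log2 scale. By this length measure the direction of Tet3 and Dnmt3a turned. Lower log2 ratios than that of Tet1 were found in 11.05% of the genes of the decile, and lower ones than that of Tet2 in 12.9%.

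Dnmt1, at 5870 nt, was in the next decile, where the median was -0.06, and 18.1% of that decile had a lower log2 ratio. Mbd2 and Mbd3, at 1953 and 1662 nt, shared a decile with a median of 0.10 and lay 0.01 and 0.06 above it. Annotated transcripts of these genes vary. By the median of its protein-coding transcripts, Tet1 measures 567 nt and falls in the shortest decile, with a median log2 ratio of 0.09. Tet2 measures 4746.5 nt in a decile with a median of -0.06. By that measure Dnmt3a, at 814 nt, falls in a decile with a median of 0.08, and Tet3, at 5944 nt, in one with -0.144. The log2 ratios of Dnmt3a (-0.064) and Tet3 (-0.156) lie below these medians, so neither turned. Which transcripts were present is not given in the table. The part of length in the values of Tet1 and Tet2 was not tested.

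**Figure D4:**
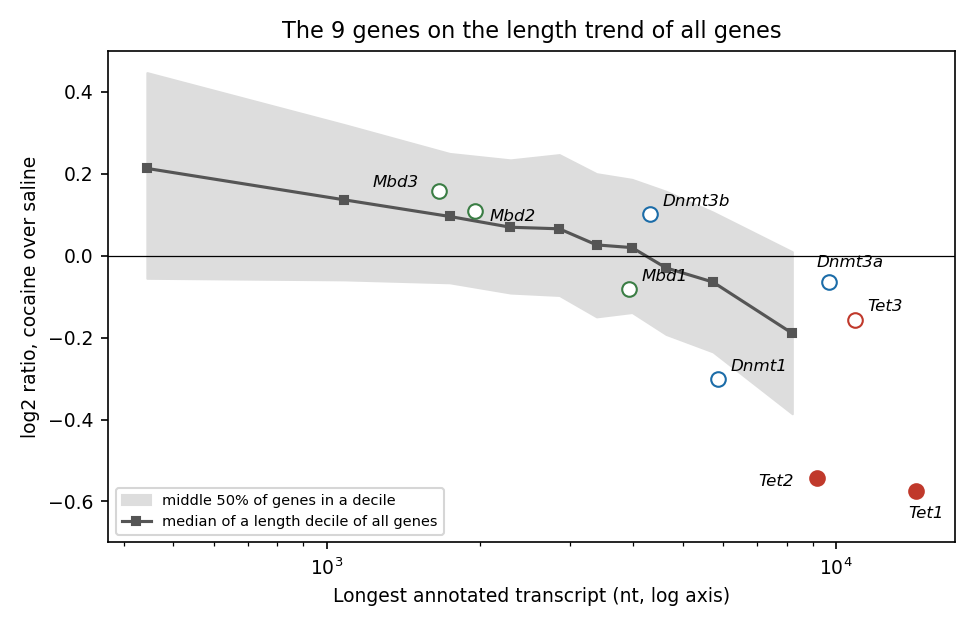
Log2 ratio of cocaine over saline against the longest annotated transcript of each gene (logarithmic axis), with the 9 genes as circles (filled where q is under 0.05) over the median and middle 50% of each decile of all genes by length. The trend goes from 0.21 to -0.19, and Tet1 and Tet2 lie below the band of the longest decile.

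Other genes of the pathway were followed in 5 lists. Over the 71 distinct genes of these lists that had status OK and are reported, 13 were called, 6 higher and 7 lower, or 18.3% against 11.9% of all status OK rows and 14.8% of those with a mean of at least 1 FPKM. The median log2 ratio of those of at least 1 FPKM was -0.04. The called genes that fell had a median longest transcript of 7438 nt and those that rose one of 3075 nt, so length moved with direction here too, and its part was not tested. Among rows alone in their locus 6 were called.

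Of 8 tested readers and related genes beyond the members, 2 were called lower and 0 called higher. The share of 25% stands beside 11.9% of all status OK rows and 14.8% of those with a mean of at least 1 FPKM. Mbd5 encodes a protein with a methyl-CpG binding domain and shares its locus with other rows. It was at 24.6 FPKM in saline and lower, at 16.5 FPKM, in cocaine pools, and the authors' deposited table gave q = 8.72e-08 (log2 ratio -0.58 ± 0.10). Zbtb4, a zinc finger protein that binds methylated CpG, fell from 32.03 to 22.2 FPKM (-0.53 ± 0.12), with q = 0.000266 in the authors' deposited table. By longest transcript, 8543 nt for Mbd5 and 7811 nt for Zbtb4, both fall in the longest decile, where 29.8% were called lower. The part of length was not tested. Mbd6, at 44.98 and 37.98 FPKM (q = 0.0979), Uhrf2, at 23.3 and 24.5 FPKM (q = 0.946), and Zbtb38, at 14.6 and 14.3 FPKM, did not pass the test of the authors' deposited table. Uhrf1, which guides Dnmt1 to newly copied DNA, was under 1 FPKM in both groups.

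In the list of excision and demethylation accessory genes 0 of 18 were called by the authors' test, where 2 had an unadjusted p under 0.05 and 1 a q under 0.1. Over all status OK rows 11.9% were called. Tdg, the glycosylase that removes the oxidised bases made by Tet enzymes, was at 17.7 and 16.3 FPKM (log2 ratio -0.12 ± 0.14, q = 0.739, in the authors' deposited table). Ogt, which glycosylates proteins and binds Tet2 and Tet3, was the most abundant at 105.6 and 103.4 FPKM, with a log2 ratio of -0.03 ± 0.06 and a 95% interval of -0.16 to 0.10. Apex1, the endonuclease of base excision repair, was at 17.03 and 19.5 FPKM, uncalled by the authors' deposited table (q = 0.444). Gadd45b, an activity-induced gene linked to demethylation, was at 5.68 and 6.68 FPKM and did not pass the test of the authors' deposited table (q = 0.560).

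Of 12 NuRD partners of Mbd2 and Mbd3, 5 were called, 2 higher and 3 lower. That is 41.7%, beside 14.8% of status OK rows with a mean of at least 1 FPKM. The deacetylase gene Hdac2 (log2 ratio 0.43 ± 0.10) and the histone-binding subunit gene Rbbp7 (0.30 ± 0.10) rose. Gatad2b, a scaffold subunit that joins Mbd2 to the remodeller, fell from 36.02 to 20.99 FPKM (-0.78 ± 0.12, and by the authors' deposited table q = 4.48e-09), and Mta3 (-0.31 ± 0.10) and the remodeller gene Chd3 (-0.21 ± 0.06) fell less. Chd4, the other main remodeller of the complex, was at 94.3 and 90.1 FPKM (-0.07 ± 0.08) and was not called, nor were Mta1, at 39.1 and 33.9 FPKM, and Rbbp4, at 31.5 and 33.9 FPKM. At a q under 0.01, 2 of these 12 were called. Rbbp7 and Chd3 shared their loci with other rows, and 3 of the 7 NuRD partners alone in their locus were called. No share over all rows is given for either restriction.

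Genes of methyl donor and Tet cofactor metabolism were called in 4 of 21 cases, 3 higher and 1 lower. That is 19.0%, beside 14.8% of status OK rows with a mean of at least 1 FPKM. Mat2a, which makes the methyl donor S-adenosylmethionine, rose from 48.2 to 60.3 FPKM (log2 ratio 0.32 ± 0.09, and by the authors' deposited table q = 0.00786). Ahcyl1, related to the hydrolase of S-adenosylhomocysteine, fell from 253.9 to 211.4 FPKM (-0.26 ± 0.06). Sdha (0.26 ± 0.07) and Fh1 (0.38 ± 0.10), enzymes that clear succinate and fumarate, known inhibitors of Tet enzymes, rose in loci shared with other rows. Of 14 genes of this list alone in their locus 2 were called, with no share over all such rows given. Idh3b, at 255.4 and 242.1 FPKM, Idh3g, at 262.4 and 229.6 FPKM with a q of 0.0514, and Mat2b, at 66.4 and 68.6 FPKM, were uncalled by the authors' deposited table.

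Among 13 partners of Dnmt proteins and corepressor genes, 1 was called higher and 1 called lower. Together they make up 15.4%, beside 14.8% of status OK rows with a mean of at least 1 FPKM. Ncor1, a nuclear corepressor gene, fell from 162.4 to 106.4 FPKM (-0.61 ± 0.07 on the log2 scale). Suz12, a core subunit of Polycomb repressive complex 2, rose from 2.50 to 5.31 FPKM (1.09 ± 0.25). Both Ncor1 and Suz12 shared their loci with other rows. Usp7, which stabilises Dnmt1 protein, was at 94.1 and 91.3 FPKM (-0.04 ± 0.08), Atrx at 59.01 and 50.7 FPKM (q = 0.159) and Hdac3 at 43.4 and 40.2 FPKM (q = 0.634), not called in the authors' deposited table.

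**Figure D5:**
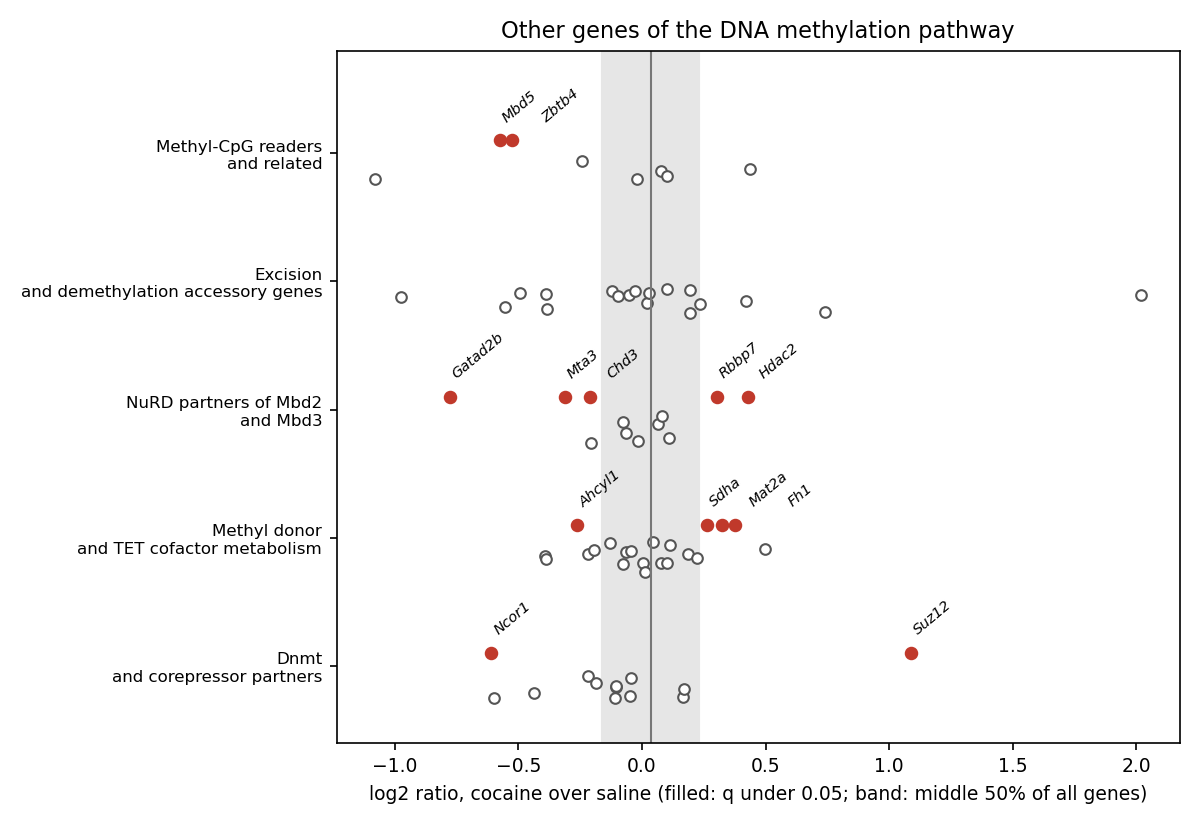
Log2 ratio of cocaine over saline for the tested genes of 5 pathway lists, with called genes filled and named and the median and middle 50% of all expressed genes behind them. Called genes lie on both sides of 0 in the NuRD, metabolism and partner lists, and on the lower side among the readers.

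In whole tissue, fewer cells of a type and less RNA per cell cannot be told apart. All 10 markers of striatal projection neurons were measured, with a summed level of 3508 FPKM in saline and 3961 FPKM in cocaine pools. Of these, 7 had the higher value after cocaine and 3 the lower, and 2 were called, both higher. Of 4 choroid plexus markers 1 was called (Ttr, lower), with a sum of 99.9 FPKM in saline and 16.1 FPKM in cocaine pools. Without Ttr the other 3 summed to 6.51 and 6.69 FPKM, with 0 called. Most of that sum was Clic6, at the higher value after cocaine (4.22 and 5.49 FPKM), while Kl and Folr1 were at the lower. The log2 ratio was -3.30 ± 0.16 for Ttr, -3.30 ± 3.87 for Folr1, -0.48 ± 0.21 for Kl and 0.38 ± 0.22 for Clic6. Folr1 was under 1 FPKM in both groups, and its 95% interval of -10.9 to 4.27 included 0. That of Kl, -0.90 to -0.06, did not. All 4 markers of cortical excitatory neurons had the higher value after cocaine and 1 was called, with sums of 15.9 and 24.99 FPKM. Called astrocyte markers numbered 0 of 5 (sums 212.97 and 206.1 FPKM), with 1 higher and 4 lower. For oligodendrocytes 2 of 5 were called, both lower (2012 and 1913 FPKM), with 2 of the 5 higher and 3 lower. For their precursors 1 of 2 was called, lower (11.2 and 9.96 FPKM), and both had the lower value. For microglia 1 of 5 was called, higher (64.2 and 65.5 FPKM), but 3 of the 5 had the lower value. For endothelial cells 1 of 3 was called, lower (27.1 and 28.2 FPKM), but 2 of the 3 had the higher value. The share called was 11.9% over all status OK rows and 14.8% over those with a mean of at least 1 FPKM. Dividing-cell markers, relevant to Dnmt1 as a gene of replicating cells, summed to 2.05 and 1.85 FPKM, with 0 of 4 called. The part of cell makeup in the values of Tet1, Tet2 and Dnmt1 was not tested.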

How the data were processed

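Per the submitters' processing notes, CASAVA, TopHat and Cuffdiff were run, with mm9 and NCBIM37 as builds; no version or annotation is given in the sources used here. The authors deposited 1 FPKM value per gene and group, a unit taken from the Cuffdiff layout, with the p-value of their test. The deposited q was treated as a score for calling, since q can exceed 1. The deposited test statistic was taken to follow a normal distribution. The statistic had the sign opposite to the log2 ratio in 100% of 20054 rows, so its size alone was used. The implied standard error is the absolute log2 ratio over the absolute statistic, and intervals are the ratio with 95% normal limits. No pseudocount was used. Genes were called at q under 0.05 with status OK.

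Groups came from the sample titles. A test on pools was not possible, and the authors' test took its place. Members and lists were chosen with earlier results of these data known. All members, the called genes of each pathway list and up to 3 abundant uncalled ones were to be named; Gadd45b, Uhrf1 and Ttr lie outside that rule and were chosen after their values were seen. Some genes of the pathway lists are not reported here and are left out of the counts. The length deciles used 13671 genes (96.3%) with a GENCODE vM21 transcript, older symbols being matched as RefSeq synonyms. Promoter windows came from RefSeq. Printed starts are the table's plus 1, which matched 21 of 21 mitochondrial genes. Calling was tested on simulated data. Python 3.11.15, pandas 2.3.3 and SciPy 1.17.1 were used.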

Additional observations from a re-analysis of the deposited data

How the results depend on the processing

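Centring on the median of all genes (0.04) turned none of the 9 log2 ratios. Calls rest on the deposited q, which centring and a pseudocount leave as it is, and summing the rows of a symbol changes nothing for members with 1 row each. Called members numbered 1 at a q under 0.01, where Tet1 (-0.58) was lost, 1 with Benjamini-Hochberg adjustment recomputed over rows of at least 1 FPKM, and 1 with at least 1 FPKM in both groups, where Tet1 did not enter. They numbered 0 at a minimum of 1.5-fold, which Tet1 (-0.58) and Tet2 (-0.54) both missed narrowly, and 3 at a q under 0.1, with Dnmt1 (-0.30). Less the median of their decile by longest transcript, an alternative chosen after seeing the data, Dnmt3a turned to 0.13 and Tet3 to 0.034. Neither of them was called, and the median of the members was 0.013. By the median length of protein-coding transcripts, both Dnmt3a and Tet3 lay below the median log2 ratio of their decile. Called pathway genes went from 13 to 3 at a minimum of 1.5-fold and to 6 for rows alone in their locus, where 45 were tested. Over all status OK rows the share called was 11.9% at a q under 0.05 and 14.6% at a q under 0.1. For the other settings no share over all rows is given, so their counts cannot be set against the whole table. Dnmt3a and Dnmt3b shared their loci and have no value under that restriction. No paired analysis was possible because the table gives 1 value per group and none per pool; leaving out pools could not be done for the same reason. The depth is unknown, and the implied errors were largest for Dnmt3b (0.71) and Tet1 (0.18), the members with the lowest FPKM.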
